A study of Mus musculus with 20 samples.

Results

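The comparison set mouse reprogramming cultures that had received crotonic acid for 4 days against cultures of the same day that had received none. Its members were 4 of the 20 samples of the series, taken by their labels: 2 libraries of day 20 cells with crotonic acid and 2 libraries of day 20 cells without it, each pair numbered 1 and 2. All 4 came from the B6DBA strain during chemical induction of pluripotency, a protocol that starts from mouse embryonic fibroblasts and uses small molecules in place of transgenes. The treated cultures had 6 to 8 mM crotonic acid at neutral pH in the induction medium from day 16 onwards, so the groups shared the whole protocol up to day 16. Day 20 cultures without the acid are called untreated here, although they too received the induction compounds, which the labels do not name. Libraries of day 24 and day 28 with the acid (8 and 12 days of it), of days 24 and 28 without it and of day 16 before it, 2 each, entered the same fit. No label states that both libraries of a group were grown as separate cultures, and the p-values therefore reflect only how far these libraries differed from each other, which could be technical. In bulk RNA, fewer cells of a type and less RNA per cell cannot be told apart.

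In mouse chemical reprogramming, cells pass through an intermediate that resembles extraembryonic endoderm, the lineage of the yolk sac, before pluripotency genes come on. Crotonic acid is a short-chain unsaturated fatty acid. Its CoA form is the donor for crotonylation of histone lysines, which Ep300 and related acetyltransferases write, YEATS and tandem PHD finger proteins read, and class I histone deacetylases and sirtuins remove. Calcitonin gene-related peptides signal through the receptor Calcrl with its partner Ramp1 and raise cyclic AMP, and cyclic AMP acts on promoters through a response element whose core letters are TGACG. NRF2 is the factor that switches on genes of glutathione synthesis and detoxification after electrophilic or oxidative stress.

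The day 20 libraries held 20399512 to 24015100 counted reads, and mitochondrial genes took 2.74 to 2.98% of them. Markers of extraembryonic endoderm were high in both groups: Gata4 stood at 303 and 548 CPM (counts scaled by library size) with crotonic acid and at 458 and 613 CPM without it, and Sox17 at 259 and 489 CPM against 335 and 474 CPM. Pou5f1, the gene of the pluripotency factor OCT4, had 0.407 and 0 CPM with the acid and 0.25 and 0.0962 CPM without it. Crotonic acid replicate 2 stood apart in liver transcripts. Albumin (Alb) had 0 and 26.2 CPM with the acid and 0 CPM in both untreated libraries, and hemopexin (Hpx) had 0.814 and 4.53 CPM against 0.208 and 0.337 CPM. Over the 24 liver genes listed, of which 21 were tested, the summed level was 95.9 and 182 CPM with the acid and 153 and 160 CPM without it. Most of this sum was prothrombin (F2), at 83.5 and 105 CPM with the acid and 136 and 143 CPM without it, so the sum hid the other members. With the replicate left out, 5 of 23 liver genes lay higher with the acid, against 17 of 21 with it, and results are given below with and without that library where it mattered.

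Calca, Lama5 and Ecel1 were 3 of the 4 genes called as higher with crotonic acid at day 20, and their proximal promoters are shown for that reason alone. Whether they share regulation was not tested. The fourth, Calcb, is named only. The sequences are RefSeq's, build GRCm38.p6, and cover the 250 bases before the transcript start, all on the minus strand: chr7:114636358-114636607 for Calca, chr2:180225860-180226109 for Lama5 and chr1:87156357-87156606 for Ecel1. Capitals mark TGACG, searched on both strands.
Calca: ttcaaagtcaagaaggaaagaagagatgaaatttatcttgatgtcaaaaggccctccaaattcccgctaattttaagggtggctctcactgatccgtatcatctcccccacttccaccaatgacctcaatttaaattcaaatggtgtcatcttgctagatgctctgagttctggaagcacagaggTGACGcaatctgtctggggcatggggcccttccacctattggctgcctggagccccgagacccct
Lama5: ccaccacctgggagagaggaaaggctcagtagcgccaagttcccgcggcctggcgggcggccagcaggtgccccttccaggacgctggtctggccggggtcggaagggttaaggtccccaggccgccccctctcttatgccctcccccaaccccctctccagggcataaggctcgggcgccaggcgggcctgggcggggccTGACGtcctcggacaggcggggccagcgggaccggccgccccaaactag
Ecel1: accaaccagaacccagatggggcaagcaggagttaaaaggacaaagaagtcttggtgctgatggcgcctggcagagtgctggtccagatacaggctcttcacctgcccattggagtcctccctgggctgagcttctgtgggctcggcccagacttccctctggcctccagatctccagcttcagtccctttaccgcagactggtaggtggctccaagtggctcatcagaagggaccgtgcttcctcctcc
The motif began at position -65 relative to the start in Calca and at -49 in Lama5, and the Ecel1 window held none. Of the 6 genes called at day 20, 5 had an entry and 2 of these held the motif, while 17.8% of all 32851 RefSeq promoter windows of this length did (5836 windows). A match describes letters in a window and not a bound site.

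At day 20, 6 of 17387 genes tested passed edgeR's quasi-likelihood test with the replicate number as a block and Benjamini-Hochberg adjusted p under 0.05, which was 0.0345% of them. Of these, 4 rose with crotonic acid (0.023%): the peptide genes Calca and Calcb, the peptidase gene Ecel1 and the laminin gene Lama5. The other 2 fell (0.0115%): Aifm3, a mitochondrial relative of the apoptosis-inducing factor, and Col13a1, a transmembrane collagen. Unadjusted p was under 0.05 for 902 genes higher with the acid (5.19%) and 580 lower (3.34%), and the median log2 change over all genes was -0.0056. Without the replicate block these counts were smaller, at 364 higher and 221 lower of the same 17387 genes. All 6 calls rested on every day 20 library. With any 1 of the 4 libraries left out, 0 or 1 gene passed and none of the 6 did, and without the replicate block no gene passed while 585 had an unadjusted p under 0.05 (DESeq2 called 153 genes with the block and limma-voom 10).

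Calcb, which encodes the beta form of calcitonin gene-related peptide, had 81.5 and 50.4 CPM in the crotonic acid libraries and 30.4 and 19.6 CPM in the untreated ones. Both treated libraries lay above both untreated ones, and replicate 1 was higher than replicate 2 in each group. Its log2 fold change ± standard error was 1.39 ± 0.16 (2.63-fold, edgeR adjusted p = 0.0165), and it ranged from 1.26 to 1.52 with 1 library left out. Calca, the gene of calcitonin and of the alpha form of the peptide, had 23.0 and 11.4 CPM with the acid and 6.17 and 3.32 CPM without it. The groups did not overlap, and the change was 1.85 ± 0.23 (3.60-fold, edgeR adjusted p = 0.0296), the largest log2 change among the 6. Per length of transcript, Calcb was the more abundant of the pair, at 62.1 and 38.5 FPKM against 13.2 and 6.55 FPKM for Calca in the treated libraries. Both genes share similar exons, and the treatment of reads matching both is not given in the sources used, so the split between them is uncertain.

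Ecel1 encodes a membrane metallopeptidase of the endothelin-converting enzyme family, known chiefly from neurons. It had 56.0 and 30.3 CPM with crotonic acid and 15.6 and 9.82 CPM without it, a change of 1.74 ± 0.22 (3.35-fold, edgeR adjusted p = 0.0328). The lower treated library was nearly at 2 times the higher untreated one. Lama5 encodes the alpha chain of laminin-511, a basement membrane protein on which pluripotent cells adhere. It had 161 and 190.2 CPM in the treated libraries and 70.6 and 92.6 CPM in the untreated ones, so both replicates moved by a similar factor (1.12 ± 0.13, 2.17-fold, edgeR adjusted p = 0.0165). Here replicate 2 was the higher in each group, the opposite of the order seen for Calcb, Calca and Ecel1.

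Aifm3 had 54.1 and 45.5 CPM with crotonic acid and 111 and 102 CPM without it. It fell by 1.09 on the log2 scale (standard error 0.12, edgeR adjusted p = 0.0165), and each group's libraries lay within 10 CPM of each other. Col13a1, a collagen of cell adhesion sites, had 5.70 and 9.02 CPM with the acid and 15.8 and 20.4 CPM without it. The groups did not overlap, and it fell by 1.32 (standard error 0.18, edgeR adjusted p = 0.0469). Without crotonic acid replicate 2, the library with liver transcripts, the changes were 1.52 for Calcb, 1.74 for Calca, 1.94 for Ecel1, 1.19 for Lama5, -0.97 for Aifm3 and -1.47 for Col13a1, none past the threshold (edgeR adjusted p = 0.106 to 0.237).

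**Figure D1:**
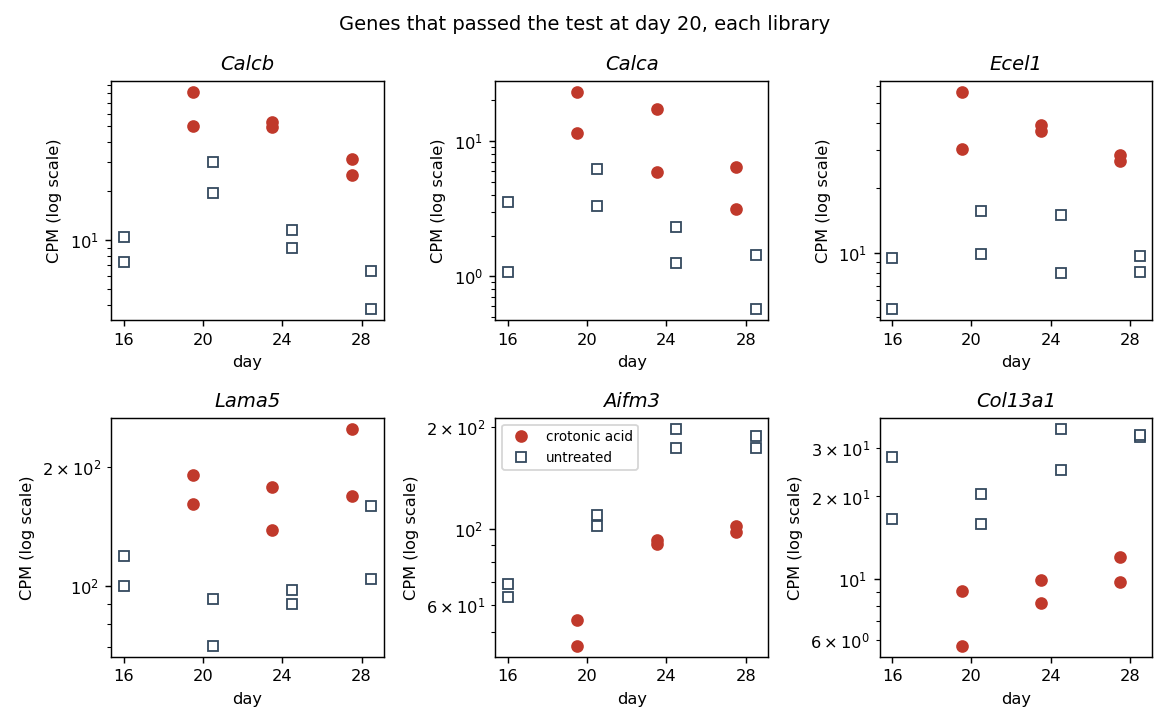
Level of the 6 genes that passed the test at day 20 in each library (CPM, log scale) by day of reprogramming; filled circles are crotonic acid libraries, open squares are untreated libraries, and day 16 precedes the acid. At day 20 both treated libraries lie above both untreated ones for Calcb (81.5 and 50.4 against 30.4 and 19.6 CPM), Calca, Ecel1 and Lama5, and below them for Aifm3 and Col13a1.

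Beyond the 6 calls, the 14 genes with the smallest p in each direction, among those reaching a group mean of 5 CPM that moved the same way in both replicate pairs, are described next. They were chosen on the day 20 values, so their day 20 differences are descriptions. In 13 of the 14 higher genes and all 14 lower genes the groups did not overlap. Over all genes tested, both treated libraries lay above both untreated ones in 17% and below them in 18.1%, and nothing is read from the members' count, since the rule used this contrast.

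The higher genes included a pair that NRF2 is known to drive. Slc7a11, which imports cystine for glutathione synthesis, had 187 and 142 CPM with crotonic acid and 68.7 and 44.6 CPM without it (log2 change 1.56 ± 0.23, edgeR adjusted p = 0.0651). Nqo1, a quinone reductase, had 100.4 and 90.6 CPM against 36.7 and 34.0 CPM (1.43 ± 0.22, edgeR adjusted p = 0.0722). Neither passed the threshold, although the treated libraries of both genes stood at more than 2 times the higher untreated one. Slc23a2, which carries vitamin C into cells, had 128 and 102 CPM with the acid and 86.8 and 71.3 CPM without it.

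A further pair encoded Wnt receptors. Fzd6 had 136 and 105 CPM with crotonic acid and 91.6 and 68.7 CPM without it, and Fzd2 had 21.9 and 19.2 CPM against 14.5 and 9.09 CPM. Fzd2 was at 34.1 and 23.2 CPM at day 16, so the treated libraries lay between day 16 and untreated day 20. Cdx2, a homeobox factor of trophectoderm and gut, had 20.4 and 38.8 CPM with the acid and 10.5 and 20.1 CPM without it. The replicates of Cdx2 differed about as much as the groups, and the groups only just failed to overlap. Shank2, a scaffold of synapses and epithelia, had 64.2 and 47.6 CPM against 24.0 and 18.2 CPM. Kazald1, a secreted protein with a Kazal-type inhibitor domain, had 93.9 and 91.1 CPM against 46.8 and 42.1 CPM. These were close replicates in both groups. Tnfrsf22, a decoy receptor for the death ligand TRAIL in mice, had 34.8 and 23.7 CPM with the acid and 20.1 and 14.3 CPM without it. Trim2, a ubiquitin ligase of neurons, had 171 and 101 CPM against 114 and 70.4 CPM and was the 1 gene of the 14 whose groups overlapped.

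Among the lower genes, several encode membrane or secreted proteins. Ntn1, the guidance protein netrin-1, had 81.1 and 165 CPM with crotonic acid and 186 and 255 CPM without it (log2 change -0.91 ± 0.13, edgeR adjusted p = 0.0584). Kit, the receptor of stem cell factor, had 166 and 213 CPM against 314 and 359 CPM, and Aqp8, a water channel, had 298 and 384 CPM against 576 and 743 CPM. Igsf1, an immunoglobulin-family membrane protein, had 178 and 177 CPM with the acid and 339.5 and 306 CPM without it. Slc6a2, the noradrenaline transporter, had 24.0 and 25.4 CPM against 73.8 and 43.0 CPM. The treated libraries agreed closely for Igsf1 and Slc6a2 and the untreated ones of Slc6a2 did not. Srgn, the proteoglycan serglycin, had 208 and 255 CPM against 409.6 and 421 CPM, and Otof, a calcium sensor of vesicle release in hair cells, had 26.5 and 51.2 CPM against 55.9 and 89.9 CPM. Hkdc1, a hexokinase relative, had 44.0 and 70.9 CPM with the acid and 88.7 and 125 CPM without it.

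The remaining lower genes act inside the cell. Sox21, a SOX-family repressor, had 43.5 and 64.8 CPM with crotonic acid and 81.5 and 105 CPM without it. Elavl4, a neuronal RNA-binding protein, had 12.7 and 18.3 CPM against 26.9 and 29.8 CPM, and Ints6l, a relative of an Integrator subunit, had 54.3 and 76.1 CPM against 97.2 and 108 CPM. Wnk3, a kinase that controls chloride cotransporters, had 19.7 and 22.6 CPM against 34.9 and 38.4 CPM. Across the 14 lower genes the adjusted p reached 0.135, and across the 14 higher genes 0.137. Exons of Fzd6, Sox21 and Wnk3 overlap an antisense gene in GENCODE M21 (Gm26704, Gm4675 and A230072E10Rik, in that order), and without strand their reads cannot be told apart. All 112 values of the 28 genes with 1 day 20 library left out kept the sign of the main value.

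**Figure D2:**
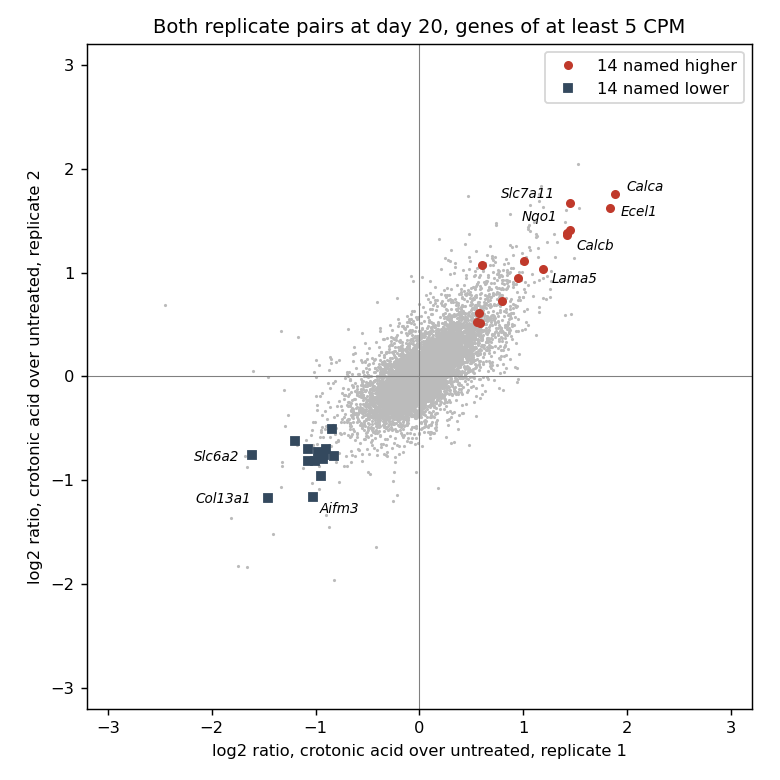
Log2 ratio of crotonic acid over untreated in replicate pair 1 (horizontal) and in replicate pair 2 (vertical) at day 20, for 11721 genes reaching a group mean of 5 CPM, 1 of them outside the axes; red circles are the 14 genes named as higher and dark squares the 14 named as lower. The 28 named genes lie in the corners where both pairs moved the same way, which the rule required, with Calca, Ecel1 and Slc7a11 farthest out among the higher ones.

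The rule did not use the day 24 and day 28 differences, but it ranked p-values from a fit in which these libraries helped to set the spread. The calls below share that spread and are not an independent test of the day 20 differences. At day 24, 0.535% of all genes passed (93), 0.236% upward and 0.299% downward, and at day 28 0.615% passed (107), 0.299% upward and 0.316% downward. Of the 14 genes named as higher at day 20, 12 rose at day 24 and the same 12 at day 28. The other 2 were Slc23a2, just short of the threshold on both days (edgeR adjusted p = 0.0537 and 0.0517), and Fzd2 (0.187 and 0.502). Of the 14 named as lower, 11 fell at day 24 and 6 of these fell again at day 28: Aifm3, Col13a1, Ntn1, Otof, Slc6a2 and Wnk3. Liver transcripts were also present in crotonic acid replicate 1 of day 28 (Alb at 72.1 CPM, against 0 CPM in both untreated day 28 libraries). Without that library 7 of these 18 day 28 calls were made, those of Calcb, Ecel1, Shank2, Slc7a11, Nqo1, Ntn1 and Slc6a2, no sign changed among the 28, and 11 of all genes passed in place of 107. All 28 kept their sign on both days, while 67.8% of all genes had the same sign at days 20 and 24 and 65.5% at days 20 and 28.

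Slc7a11 and Nqo1, which missed the threshold at day 20, passed it later. Slc7a11 had 123 and 81.2 CPM with crotonic acid at day 24 against 39.5 and 18.5 CPM without it, and 109 and 116 CPM against 20.2 and 20.6 CPM at day 28. The treated level of Slc7a11 was thus highest at day 20, and both untreated day 28 libraries lay below both untreated day 20 ones. Its log2 change was 1.84 ± 0.23 at day 24 and 2.47 ± 0.24 at day 28 (edgeR adjusted p = 0.0071 and 0.00255). Nqo1 changed by 1.59 ± 0.23 and 2.06 ± 0.24 on these days (edgeR adjusted p = 0.0149 and 0.00528).

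Calcb changed by 2.34 ± 0.17 at day 24 and 2.49 ± 0.17 at day 28, and Calca by 2.58 ± 0.25 and 2.29 ± 0.28 (edgeR adjusted p from 0.000445 to 0.00615). Calcb had 53 and 49.5 CPM with the acid at day 24 against 11.5 and 8.98 CPM, and 31.4 and 25 CPM at day 28 against 6.45 and 3.76 CPM. Both treated and untreated levels were lower at day 28 than at day 20, with the untreated ones at 10.4 and 7.32 CPM on day 16. Lama5 changed by 0.74 ± 0.13 at day 24 and 0.67 ± 0.12 at day 28, and Ecel1 by 1.79 ± 0.23 and 1.64 ± 0.23. Slc6a2 fell by 2.07 at day 24 and by 2.18 at day 28, against a log2 change of -1.19 at day 20.

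The difference of the effect between days was tested directly. No gene passed for day 24 minus day 20 or for day 28 minus day 20 in edgeR. Unadjusted p was under 0.05 for 262 genes (1.51%) and 460 genes (2.65%), and DESeq2 called 0 and 1, limma-voom 0 and 0. Among the named genes the smallest unadjusted p of this difference was that of Calcb, whose effect was larger by 0.95 ± 0.22 at day 24 (edgeR unadjusted p = 0.00141, adjusted p = 1) and by 1.10 ± 0.23 at day 28 (0.00062, adjusted p = 1). Among the lower genes it was that of Slc6a2 (0.00765 and 0.0036, adjusted p = 1). A larger or smaller change at day 20 than on later days was therefore not shown for any of the 28. Median log2 changes over the 14 higher genes were 1.09 at day 20, 1.44 at day 24 and 1.29 at day 28, and over the 14 lower genes -0.90, -0.89 and -0.64.

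Levels at day 16, before the acid, stood on different sides of the day 20 groups. Aifm3 had 69.3 and 63.3 CPM at day 16, below the untreated day 20 libraries and above the treated ones. Nqo1 had 13.6 and 12.7 CPM at day 16, so it was higher on day 20 in both groups. Slc6a2 had 154 and 112 CPM at day 16, above every day 20 library. Otof followed the same order, with 162 and 214 CPM at day 16.

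**Figure D3:**
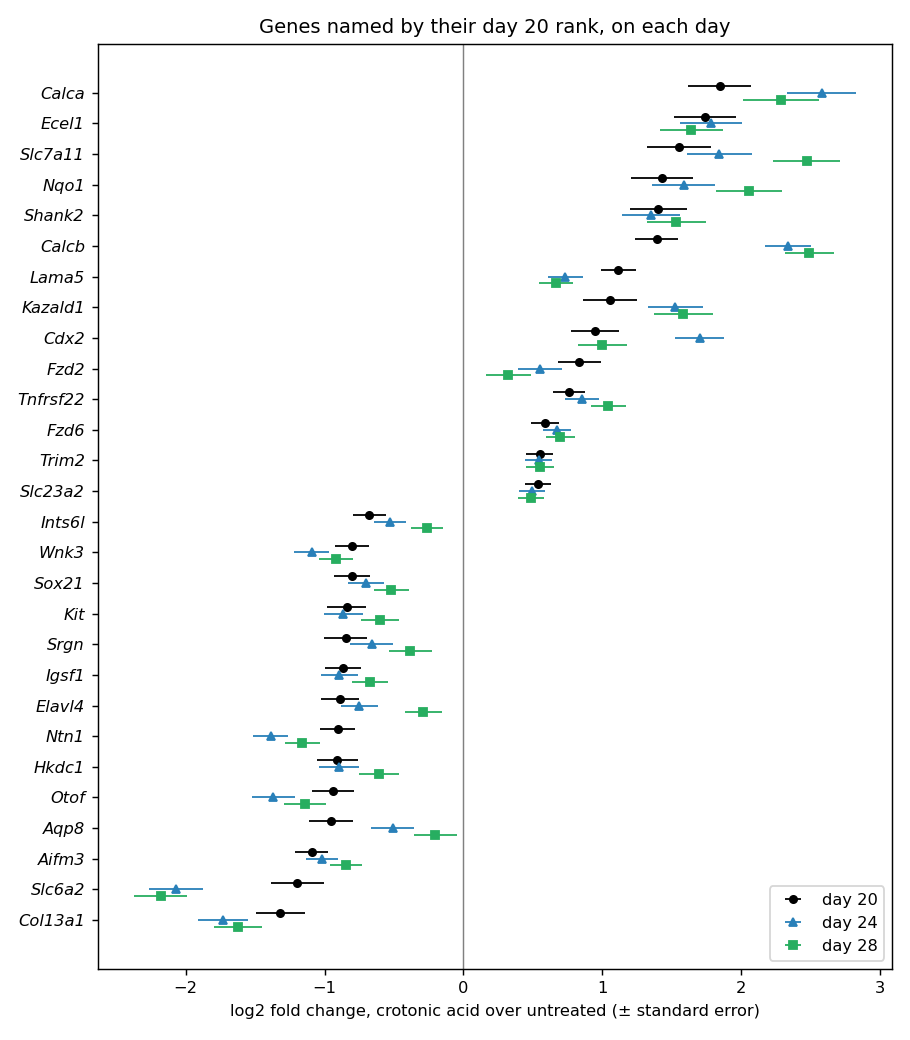
Log2 fold change of crotonic acid over untreated (horizontal, bars ± standard error) at day 20 (black circles), day 24 (blue triangles) and day 28 (green squares) for the 28 genes named by their day 20 rank. All 28 lie on the same side of 0 on the 3 days; for Calcb the values are 1.39, 2.34 and 2.49, and for Slc6a2 -1.19, -2.07 and -2.18.

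Gene groups are described by how many members lay higher or lower and by their median log2 change, beside 48.9% higher and a median of -0.0056 over all genes tested. Apart from Calca, Calcb and Lama5, no list member passed at day 20, and the counts below at an unadjusted p under 0.05 stand against 5.19% of all genes upward and 3.34% downward. Of 24 NRF2 target genes, 23 lay higher with crotonic acid and 1 lower, with a median of 0.24, and 7 had an unadjusted p under 0.05, all upward, which was 2 without the replicate block and 4 or 5 with 1 library left out. Their summed level was 6228 and 5861 CPM with the acid and 5577 and 5192 CPM without it. Besides Slc7a11 and Nqo1, the glutathione transferase gene Gsta4 had 63.7 and 52.5 CPM against 42.5 and 33.8 CPM, and the efflux pump gene Abcc1 had 187 and 137 CPM against 137 and 106 CPM. Hmox1, the heme oxygenase that NRF2 also drives, had 115 and 79.7 CPM with the acid and 95.8 and 69.8 CPM without it (log2 change 0.23 ± 0.21, edgeR adjusted p = 0.776). The size of the difference thus ran from -0.02 for the ferritin gene Ftl1 to 1.56 for Slc7a11. With 1 library left out, 21 to 24 of the 24 lay higher. Slc7a11, Nqo1 and Gsta4 were the 3 members that rose at day 24, and Slc7a11 and Nqo1 the 2 that rose at day 28. The later calls of Slc7a11 and Nqo1 are those given above. The list's medians were 0.21 at day 24 and 0.18 at day 28.

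The other stress lists lay in different directions, and no member of them passed. Of 25 genes driven by ATF4, the factor of amino acid and endoplasmic reticulum stress, 19 lay lower and 6 higher, with a median of -0.23. Atf4 itself had 128 and 127 CPM with the acid and 160.3 and 178 CPM without it, and Atf3, another factor of this response, had 22.8 and 26.2 CPM against 31.5 and 37.0 CPM. Slc7a11 is also known as an ATF4 target but was not on this list. Of 25 genes of the p53 pathway, Cdkn2a among them, 23 lay higher and 2 lower, with a median of 0.19. Gdf15, on both this list and the ATF4 list, was the highest of each, at a log2 change of 0.58. Without untreated replicate 1, 17 lay higher with a median of 0.11, and without untreated replicate 2, 24 did with a median of 0.31. Cdkn1a, the cell cycle inhibitor p21, had 580 and 431 CPM with the acid and 427 and 362 CPM without it (log2 change 0.34 ± 0.14, edgeR adjusted p = 0.536). Phlda3, an inhibitor of AKT, had 429 and 349 CPM against 308 and 259 CPM.

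All 36 proliferation genes lay lower with crotonic acid at day 20, with a median of -0.26, and none passed. Of these, 5 had an unadjusted p under 0.05, against 1 without the replicate block and 1 or 2 with 1 library left out. In 16 of the 36 both treated libraries lay below both untreated ones, beside 18.1% of all genes tested. The summed level was 2685 and 3463 CPM with the acid and 3327 and 4036 CPM without it, so each treated library lay below its own pair while the groups overlapped. Kif23, a motor protein of cytokinesis, had 48.8 and 61.0 CPM against 68.6 and 91.3 CPM. Nusap1, a spindle protein, had 41.0 and 40.7 CPM against 59.3 and 61.8 CPM, and Mki67, the proliferation antigen, averaged 231 CPM against 278 CPM. With 1 library left out, 33 to 36 of the 36 lay lower. At days 24 and 28 the list's medians were -0.05 and -0.15, and no member passed on either day.

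Most extraembryonic endoderm genes lay lower with crotonic acid, and none passed. Of 27 tested of 28 listed, 21 lay lower and 6 higher, with a median of -0.34, and 12 had an unadjusted p under 0.05, all downward. That count was 4 without the replicate block and 7 without untreated replicate 1. The summed level of all 28 listed was 17689 and 20665 CPM with crotonic acid and 23910 and 26104 CPM without it. Col4a1 and Col4a2, the chains of collagen IV, had 3149 and 4163 CPM and 2432 and 3295 CPM with the acid, against 4916 and 5636 CPM and 3576 and 4080 CPM without it. Pth1r, a parathyroid hormone receptor of parietal endoderm, had 244 and 352 CPM against 428 and 519 CPM. The regulator Foxa2 had 36.9 and 57.6 CPM against 57.8 and 71.2 CPM, and Gata6 had 56.4 and 98.1 CPM against 88.4 and 115 CPM. Sox17 differed least among these regulators (log2 change -0.16 ± 0.12, edgeR adjusted p = 0.751). The highest member, the transthyretin gene Ttr, at a log2 change of 1.91, is also a liver transcript. Medians with 1 library left out lay between -0.39 and -0.24. The list's medians were -0.49 at day 24 and -0.33 at day 28, with 4 and 3 members past the threshold, all downward.

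Of the basement membrane genes, Lama5 alone passed at day 20. Of 28, 14 lay higher and 14 lower, with a median of 0.01 that ran from -0.080 to -0.0027 with 1 library left out. An unadjusted p under 0.05 was found for 2 higher and 9 lower members, and for 2 higher and 5 lower ones without the replicate block. The chains of laminin-111 lay lower: Lama1 had 1617 and 1947 CPM with crotonic acid and 2286 and 2779 CPM without it (log2 change -0.51 ± 0.13, edgeR adjusted p = 0.293), with Lamb1 at -0.38 and Lamc1 at -0.34. Lama5, whose product pairs with the same beta and gamma chains, rose as given above. Hspg2, the heparan sulfate proteoglycan perlecan, had a log2 change of 0.52 ± 0.16, and P4ha1, a collagen prolyl hydroxylase, had 123 and 146 CPM with the acid against 184 and 185 CPM. At day 24, 5 members fell and 1 rose, and at day 28, 4 fell and 1 rose, and Lama5 rose on both days. Col4a1 and Col4a2 fell on both days and are also on the extraembryonic endoderm list, so both lists count them.

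**Figure D4:**
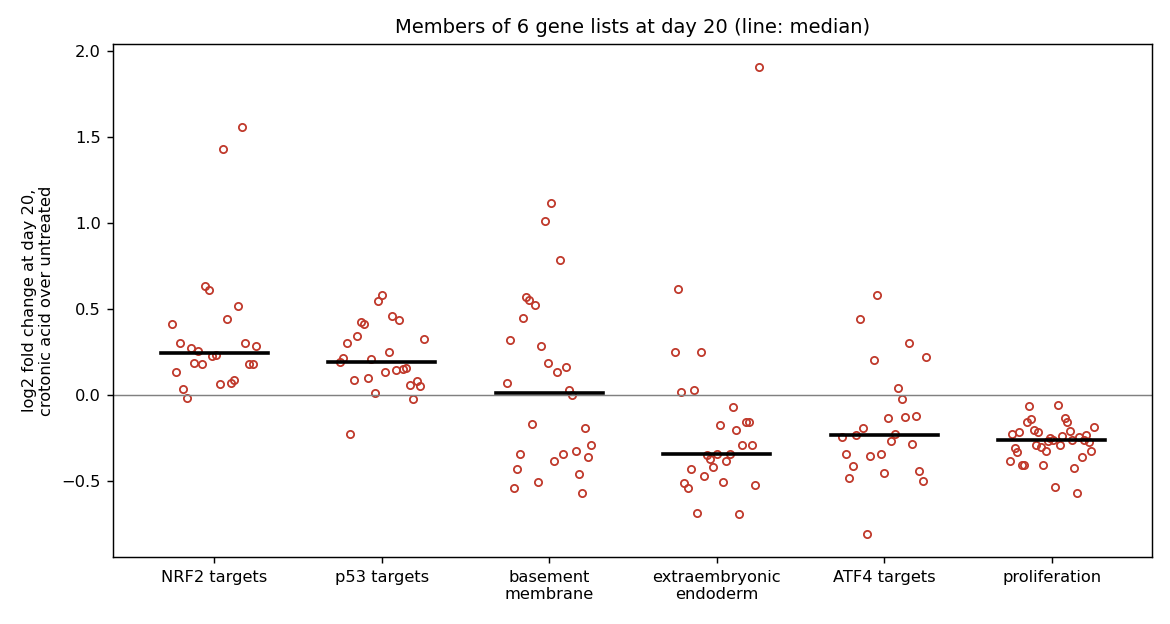
Log2 fold change of crotonic acid over untreated at day 20 for each tested member of 6 gene lists (open circles; horizontal bars are medians). NRF2 targets and p53 pathway genes (labelled p53 targets) lie mostly above 0 (medians 0.24 and 0.19). Proliferation, endoderm and ATF4 genes lie mostly below it (-0.26, -0.34 and -0.23). Basement membrane genes lie on both sides (0.01), with Lama5 at the top.

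For the calcitonin peptides, the receptor side was present at low to moderate levels. Calcrl, the receptor itself, averaged 3.05 CPM with crotonic acid and 2.42 CPM without it. Ramp1, the partner named above for these peptides, had 45.2 and 40.3 CPM against 63.2 and 50.9 CPM (log2 change -0.42 ± 0.15, edgeR adjusted p = 0.48). Ramp3, another partner of Calcrl, had 54.4 and 43.6 CPM against 29.8 and 23.0 CPM (0.90 ± 0.25, edgeR adjusted p = 0.324). The groups did not overlap for either partner and lay in opposite orders. Of the 9 tested of 11 genes in this list, 5 lay higher and 4 lower, and Calca and Calcb were its 2 calls.

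No gene of crotonylation itself passed at day 20. Of 16 writers and readers, 12 lay lower and 4 higher, with a median of -0.03 and a lowest value of -0.26, for the acetyltransferase gene Kat7. Without crotonic acid replicate 1, 2 lay higher with a median of -0.064, and without replicate 2 of the acid 7 did with a median of -0.0068. Ep300, the main known writer, had 111 and 108 CPM with crotonic acid and 101 and 110.2 CPM without it (log2 change 0.05 ± 0.12, edgeR adjusted p = 0.925). Of 18 deacetylase and sirtuin genes, 10 lay higher and 8 lower, and 8 to 11 higher with 1 library left out. Hdac1, a class I deacetylase that also removes crotonyl groups, had 209 and 217 CPM against 195 and 196 CPM. Sirt1, a nuclear sirtuin, had 15.5 and 21.7 CPM against 23.3 and 29.4 CPM (-0.51 ± 0.17, edgeR adjusted p = 0.42). Among 18 of 19 genes that make or use crotonyl-CoA and related acyl-CoAs, 13 lay higher, with a median of 0.04, and with 1 library left out 9 to 12 did, with medians of 0.0033 to 0.073. Acss2, the synthetase known to make crotonyl-CoA from free crotonate, had 32.2 and 32.8 CPM with the acid and 23.4 and 23.9 CPM without it (0.46 ± 0.12, edgeR adjusted p = 0.296). Crot, a carnitine acyltransferase of peroxisomes, had 81.4 and 70.7 CPM against 64.8 and 55.3 CPM. Cdyl, a chromatin protein with crotonyl-CoA hydratase activity, had 44.6 and 60.3 CPM against 49.5 and 63.6 CPM.

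Receptors and carriers of short-chain acids were measured in 6 of 11 cases, of which 5 lay higher. Slc16a1, the monocarboxylate carrier MCT1, had 122 and 145 CPM with crotonic acid and 94.1 and 108 CPM without it. Ffar3, a receptor of short-chain fatty acids, was at a low level, with 2.08 and 1.99 CPM against 0.958 and 0.866 CPM. In neither gene did the groups overlap, and neither passed (edgeR adjusted p = 0.324 and 0.392). Of 18 genes known to respond to deacetylase inhibitors, 10 lay higher and 8 lower, with a median of 0.0074 that ran from 0.0039 to 0.098 with 1 library left out. Without untreated replicate 2, 14 of 19 lay higher. At an unadjusted p under 0.05, 4 of the 18 lay higher and 1 lower, against 1 and 0 without the replicate block. H1f0, the linker histone gene that such inhibitors raise in many cells, had 427 and 453 CPM with the acid and 429.9 and 447 CPM without it. Its log2 change was 0.0050 ± 0.12, so it differed by less than the spread between replicates.

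In metabolism, 17 of 28 genes of fatty acid oxidation and PPAR signalling lay higher, with a median of 0.05, and the 1 with the smallest p lay lower: Fabp3, a fatty acid carrier, had 219 and 373 CPM with crotonic acid and 349 and 512 CPM without it. Glycolysis genes lay higher in 15 of 21 cases with a median of 0.10, among them the phosphofructokinase gene Pfkm, at 57.3 and 40.5 CPM against 36.8 and 26.9 CPM. Cholesterol synthesis genes lay higher in 17 of 24 cases with a median of 0.09. Dhcr7, a late enzyme of the pathway, had 117 and 95.3 CPM against 78.7 and 62.1 CPM, while Insig1, which restrains the pathway, had 61.1 and 65.7 CPM against 77.5 and 79.5 CPM. With 1 library left out, the median ran from 0.03 to 0.14 for glycolysis and from -0.0029 to 0.20 for cholesterol synthesis. None of these genes passed.

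No pluripotency gene passed at day 20. Of 25 tested of 27 naive pluripotency genes, 11 lay higher and 14 lower, with a median of -0.12. Without crotonic acid replicate 2, 6 lay higher, and without untreated replicate 1, 13 did with a median of 0.010. Nanog had 0.936 and 0.971 CPM with crotonic acid and 1 and 1.3 CPM without it, and Sox2 had 48.8 and 42.5 CPM against 63.8 and 54.5 CPM (log2 change -0.37 ± 0.21, edgeR adjusted p = 0.659). Sall4, a factor that endoderm and pluripotent cells share, had 77.5 and 147 CPM against 110.4 and 157 CPM. Tbx3, another such factor, had 150.4 and 246 CPM against 118 and 187 CPM, higher within each pair and overlapping between groups. Genes of the 2-cell embryo were almost all without counts: Zscan4c had 0 CPM in all 4 libraries, and the list's direction at day 20 has no meaning at this depth. Germline genes lay higher in 12 of 22 cases with a median of 0.02, but in 3 of 22 with a median of -0.40 without crotonic acid replicate 1 and in 16 of 22 with a median of 0.28 without replicate 2 of the acid, so the list had no stable direction. Telomere genes lay lower in 14 of 21, with a median of -0.02 that ran from -0.084 to -0.016 with 1 library left out. Tert, the catalytic subunit of telomerase, had 5.01 and 5.09 CPM with the acid and 4.21 and 3.51 CPM without it (0.38 ± 0.23, edgeR adjusted p = 0.677), and Terf1, a telomere-binding protein, had 22.6 and 29.3 CPM against 27.2 and 33.2 CPM.

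Epithelial genes lay higher in 17 of 29 cases with a median of 0.10, in 14 of 29 with a median of -0.03 when crotonic acid replicate 2 was left out, and in 21 of 29 with a median of 0.37 when replicate 1 of the acid was. Without untreated replicate 1 it was 21 of 29, with a median of 0.16. At an unadjusted p under 0.05, 6 members lay higher and 1 lower, against 2 and 1 without the replicate block. The tight junction gene Cldn6 had 28.1 and 64.2 CPM with the acid and 22.8 and 27.5 CPM without it, so most of its difference lay in replicate 2. Cldn3, another tight junction gene, had 13.6 and 17.5 CPM against 6.25 and 6.21 CPM. Its log2 change was the highest of the list (1.31 ± 0.40, edgeR adjusted p = 0.364). Cdh1, which encodes E-cadherin, had 90.4 and 165 CPM against 73.6 and 98.6 CPM, and Epcam, another adhesion protein, had 302 and 331 CPM against 437 and 413 CPM. Dsp, a desmosome protein, had 81.1 and 104 CPM with the acid and 55.6 and 72.7 CPM without it.

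Markers of other cells were read to see what else the cultures held. Fibroblast and mesenchymal genes lay higher in 19 of 25 cases with a median of 0.19, which was 0.01 without untreated replicate 1, 0.35 without untreated replicate 2 and 0.09 without crotonic acid replicate 2. Col1a1, the main fibroblast collagen, had 737 and 664 CPM with crotonic acid and 709 and 626 CPM without it. Neural genes lay higher in 13 of 17 cases with a median of 0.42 that was 0.23 without crotonic acid replicate 2. Elavl4 was among the lower ones, and the neurofilament gene Nefl had 46.5 and 66.2 CPM against 37.8 and 45.9 CPM. The summed level of all 21 neural genes listed overlapped between groups, at 857 and 736 CPM with the acid and 825 and 688 CPM without it. Trophoblast genes lay higher in 10 of 13 cases with a median of 0.26, which ran from -0.06 to 0.56 with 1 library left out. The list had Tfap2c, a factor of this lineage, at 13.1 and 13.2 CPM against 8.96 and 7.36 CPM, and with Eomes at 15.0 and 26.5 CPM against 22.4 and 29.6 CPM. Muscle genes lay higher in 8 of 17 cases and interferon response genes in 9 of 21, with no unadjusted p under 0.05 in either list. With 1 library left out, 7 to 14 interferon response genes lay higher. Endothelial genes lay higher in 5 of 12 with a median of -0.10, or in 7 of 12 without untreated replicate 1. Their log2 changes ran from -0.58 to 1.16. At an unadjusted p under 0.05, 1 member lay higher and 2 lower, and 1 member rose at day 28. The VEGF receptor gene Flt1 had 354 and 569 CPM against 554 and 707 CPM.

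Of 16 macrophage genes 8 could be tested. The summed level of all 16 was 43.9 and 45.9 CPM with crotonic acid and 34.0 and 33.8 CPM without it. Of the 8 tested, 6 lay higher and 2 lower, with a median of 0.24. Without crotonic acid replicate 2, 6 of 11 lay higher, with a median of 0.036. Among the members not tested, Ptprc, Cx3cr1 and Ctss had 4 counts or fewer over the 4 libraries. The others, C1qa, C1qb, C1qc, Tyrobp and Aif1, had 10 to 22 counts. The part of macrophage RNA and of the liver transcripts in the differences above was not tested beyond the values without crotonic acid replicate 2. Without that library 23 of 24 NRF2 targets lay higher and all 36 proliferation genes lower, and 3 of 28 endoderm genes lay higher.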

How the data were processed

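Per the labels' protocols, total RNA was purified by a Qiagen column kit and sequenced from NEBNext Ultra libraries. Values came from 2 deposited tables made by the authors: read counts, as whole numbers, for 47643 Ensembl genes (419 without a symbol), and FPKM for 30849 genes. The sources used here do not give the aligner, counter, build or strand. Of the columns, 1 per deposited file matched no label and was not used. Counts of the 14 reprogramming libraries were fitted in edgeR 4.0.16 (R 4.3.3; filterByExpr at minimum count 10, TMM scaling, group plus replicate block, 2-sided quasi-likelihood F test, 6 residual degrees of freedom, biological coefficient of variation 14.3%). CPM values use the TMM factors. Standard errors were derived from the F statistic. The script was tested on simulated data.

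In each group the library whose label ends in rep was numbered 2 and the other 1. No label states that same-numbered libraries of different groups belong together, so the pairing by number was assumed. Deviations of same-numbered libraries from their group means correlated by 0.293 to 0.743 over 21 pairs of groups (0.743 at day 20). Replicates differed by far more than counting error (chi-squared per degree of freedom 33.6 with crotonic acid and 20.5 untreated at day 20), so depth limits precision only for genes of few counts. Alternatives were RLE and total-count scaling, no filter, DESeq2 1.42.0, limma 3.58.1 on counts (voom) and on log2(FPKM + 1) or log2(FPKM + 0.1), and fits of fewer libraries. Leaving out day 24 or day 28 libraries, for the differences between days and for the day 28 effect, was added after the data were seen. The fit without crotonic acid day 20 replicate 2 and crotonic acid day 28 replicate 1 drops the libraries described above as holding liver transcripts. Its choice therefore rested on these data.

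Genes named are those past the threshold, the 14 smallest p in each direction reaching a group mean of 5 CPM with both pairs moving the same way, up to 4 members of smallest p in each of 28 lists, and a fixed set of lineage and chromatin genes; Alb, Ramp1, Ftl1, Lamb1, Lamc1, Hspg2, Mki67, Ttr, Calcrl, Ptprc, Cx3cr1 and Ctss were added after their values were seen. The macrophage genes C1qa, C1qb, C1qc, Tyrobp and Aif1 were added in the same way. Members and lists were chosen with earlier results of these data known. Exons of Acss2, Cdkn1a, Col4a1, Col4a2, Crot, Dsp, Eomes, Ep300, Fabp3, H1f0, Nefl, Nusap1, Pfkm, Pou5f1, Ramp3, Sall4 and Sirt1 also overlap other genes. Those of Cldn3 overlap Wbscr25.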

Additional observations from a re-analysis of the deposited data

How the results depend on the processing

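The crotonic acid effect at day 20 gave 6 calls. It gave 6 with RLE factors, 5 with total-count scaling and 4 on FPKM with either pseudocount. The fit without the replicate block gave 0 (585 at an unadjusted p under 0.05), as did the compared libraries alone without the replicate block, a test against a 1.5-fold change, and the fit without crotonic acid day 20 replicate 2 and crotonic acid day 28 replicate 1. More genes were called by limma-voom (10), by limma on log2(FPKM + 1) without a filter (14), without the day 16 libraries (54), without a filter on low counts (90), by DESeq2 (153) and in the 4 compared libraries alone with the block (3912, on 1 residual degree of freedom). Leaving out 1 day 20 library gave 0 to 1. The cause of these differences was not tested. The difference of the effect between day 24 and day 20 gave 0 calls and 14 by limma on log2(FPKM + 1) without a filter, and the difference between day 28 and day 20 gave 0, 1 by DESeq2 and 71 by that limma fit. Leaving out 1 library of the days compared gave 0 for both differences. Scaling moved the median log2 change of all genes by less than 0.1. Ftl1, added after its value was seen, changed sign without crotonic acid day 20 replicate 1, where all 24 NRF2 targets lay higher. The other genes added in this way were not counted. Among the remaining named genes that were not called, 5 changed sign. With 1 day 20 library left out the log2 change ran from -4.72 to 1.01 for Pou5f1 (also -0.57 by limma-voom and -0.044 on log2(FPKM + 0.1)), from -0.34 to 0.011 for Sox17, from -0.032 to 0.14 for Ep300, from -0.015 to 0.025 for H1f0 and from -0.43 to 0.48 for Col1a1, where the settings without crotonic acid day 20 replicate 2 include the one that also leaves out crotonic acid day 28 replicate 1.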
